A study of Mus musculus with 6 samples.

Results

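Transcripts of 10 genes of the liver's Wnt system were followed in knockout and wild-type (WT) mouse liver. The genes are Wnt2, Wnt9b and Rspo3, which encode secreted signals, and Axin2, Lgr5, Tbx3, Rnf43, Znrf3, Nkd1 and Lect2, which are Wnt targets of hepatocytes. They were picked by symbol from the deposited table of 55450 genes, each matched 1 row, and all 10 were among the 14539 genes with enough counts to be tested. Of the 10 genes, 9 had a lower fitted level in knockout, as did 7129 of the 14539 genes tested. In 5 of them the 3 knockout libraries all lay under the 3 WT libraries, as in 15.5% of all genes tested. None of the 10 passed the threshold over all 6 libraries, where 3.37% of all genes tested did. In the 4 libraries that carried Y-linked counts 5 of the 10 fell, against 16.1% of all genes lower and 33.3% in either direction.

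Left liver lobes came from 6 mice of 10 weeks labelled C57BL/J, with 1 poly(A) RNA library per mouse and 3 mice per genotype. The knockout mice were LKB1 fl/fl, with loxP-flanked alleles of Stk11, which encodes LKB1, a kinase upstream of AMPK and its relatives, and the WT mice had a normal genotype. Cre recombinase was delivered to all 6 mice at 6 weeks of age by an adeno-associated virus (AAV8), so the controls also carried virus and Cre, and tissue was taken 4 weeks later. The promoter that drove Cre is not given in the sources used here, and whole lobe tissue holds endothelial and other cells beside hepatocytes. The series title names metabolic reprogramming as the subject, and the comparison here asks how the central vein Wnt signals and their hepatocyte targets differed between the genotypes.

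In the liver lobule, Wnt and R-spondin proteins are made around the central vein, chiefly by endothelial cells, and act on the nearest hepatocytes. A Wnt protein binds a Frizzled receptor and an LRP coreceptor, which stops the destruction complex from degrading beta-catenin, and beta-catenin then joins TCF/LEF factors on DNA. R-spondins bind LGR receptors and remove the ubiquitin ligases RNF43 and ZNRF3, which otherwise clear Frizzled from the cell surface, so that Wnt signalling is amplified. Hepatocytes that receive the signal carry the pericentral programme, which includes glutamine synthetase and several cytochromes P450.

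The libraries held 47659122 to 56147667 counts. Stk11 was at 22.2, 14.4 and 11.4 CPM (counts scaled to a common library size) in knockout 1, 2 and 3. In the WT mice it was at 64.2 to 69.7 CPM. This gave -2.06 ± 0.247 (SE) on the log2 scale in edgeR (adjusted p = 0.0167). The call was lost without knockout 2, knockout 3, WT 2 or WT 3 (adjusted p = 0.0607 to 0.104). Replicate 1 of each group had 29243 or more counts of the X-inactivation transcript Xist and at most 6 counts over 4 Y-linked genes, whereas the other 4 libraries had 6146 or more Y-linked counts and at most 16 Xist counts. This state and replicate number 1 cannot be told apart, so values are also given for the 4 libraries with Y-linked counts (2 against 2, called the Y-count libraries) and for replicate 1 of each group (1 against 1, called the Xist-count pair, with no replicate check). Over all genes tested, knockout 1 correlated more closely with WT 1 (Pearson's r of log2 CPM 0.968) than with knockout 2 and 3 (0.943 and 0.959), while knockout 2 and 3 correlated at 0.983 with each other. WT 1 also stood apart, at 0.967 and 0.964 with WT 2 and 3, which correlated at 0.992 with each other. A difference by state is therefore also a difference between replicate 1 and the other libraries of each group across the whole table. Knockout 1 also had the highest Stk11 level of its group. The Stk11 log2 ratio was -1.58 in the Xist-count pair, and the log2 fold change was -2.38 ± 0.148 (SE) in the Y-count libraries. The part of this difference in the values by state was not tested. Of the genes tested, 490 passed an adjusted p of 0.05 over all 6 libraries, and 63.9% of these were higher in knockout (74.4% when scaled by library size alone). Markers of hepatocytes were abundant, and 7 of 8 listed genes were in the deposited table. Of these 7, 6 had a lower fitted level in knockout. The other 1 was higher in every knockout library than in every WT library. The sum of the 7 markers was 70390, 20210 and 31190 CPM in the knockout mice, against 123500, 100200 and 87980 CPM in the WT mice. The median log2 fold change of these 7 markers was -1.08, beside -0.74 for the 7 hepatocyte Wnt targets. The part of this shift in the values of the targets was not tested.

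Over all 6 libraries, 0 of the 10 genes passed the threshold in edgeR's quasi-likelihood test, where 3.37% of all genes tested did. At an unadjusted p under 0.05, 5 of the 10 differed, all of them lower, against 26.3% of all genes tested in either direction and 11.7% lower. The 5 genes whose knockout libraries all lay below the WT libraries were Wnt2, Rspo3, Axin2, Tbx3 and Rnf43, and 15.5% of all genes tested had this separation. The median log2 fold change was -0.70 over the 10 genes and 0.01 over all genes tested. The smallest adjusted p among the 10 was 0.0754, for Axin2.

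**Figure D1:**
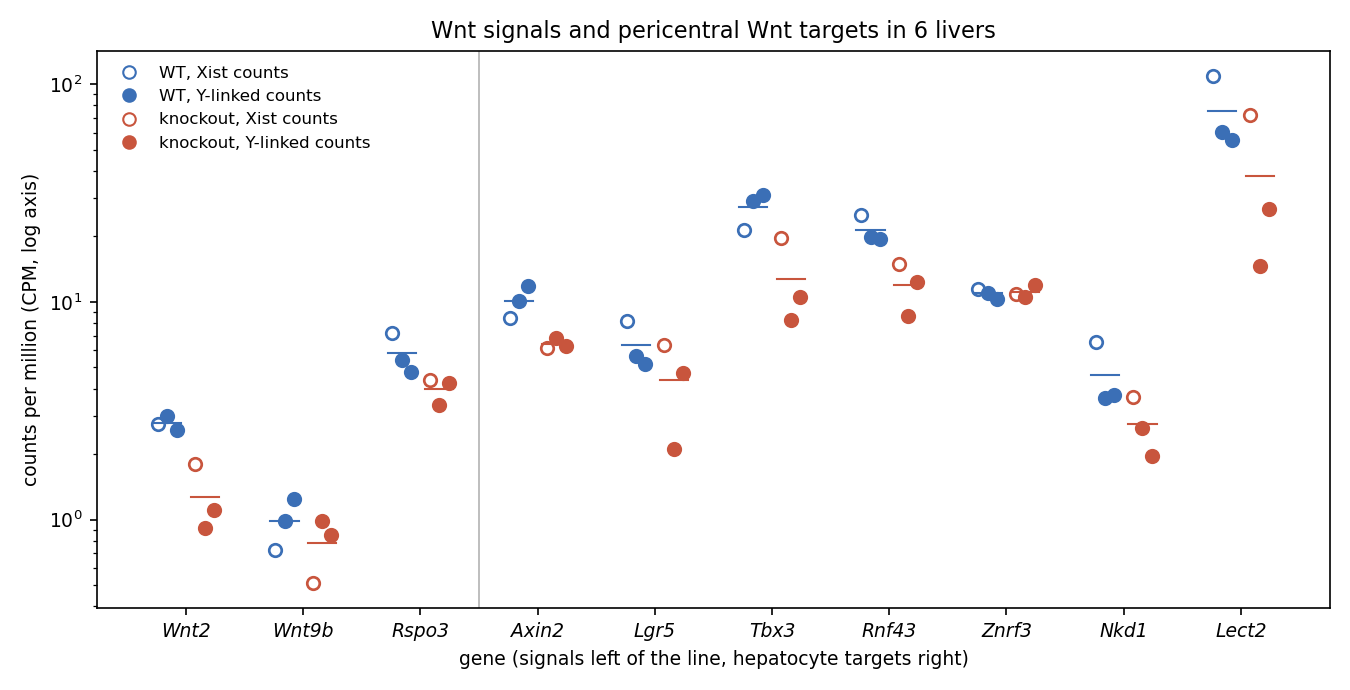
Level of each of the 10 genes in each library, in CPM on a log axis, with WT in blue, knockout in red, open circles for the libraries with Xist counts and horizontal lines at the group means. The knockout points of Wnt2, Rspo3, Axin2, Tbx3 and Rnf43 all lie under the WT points, and the groups overlap for Znrf3.

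In the Y-count libraries, 5 of the 10 genes fell and 0 rose in edgeR's test, where 16.1% of all genes tested fell and 33.3% passed in either direction. These were Wnt2, Axin2, Tbx3, Rnf43 and Lect2. Without knockout 1 the same 5 genes passed as lower, against 14.2% of all genes tested lower and 30.2% in either direction. Other tests of all 6 libraries gave 4 lower calls with DESeq2 (Wnt2, Axin2, Tbx3 and Rnf43, against 7.01% of all genes lower and 15.8% in either direction) and 0 with limma voom (against 1.22% and 2.97%). With a term for the Xist or Y-linked state, Wnt2, Axin2 and Rnf43 passed as lower, against 4.99% of all genes lower and 10.3% in either direction.

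Of the signals, Wnt2, which encodes a Wnt protein of the liver's endothelial cells, had the largest difference. It was at 1.80, 0.918 and 1.104 CPM in knockout 1, 2 and 3, from 105, 51 and 52 counts, and at 2.76, 3.01 and 2.59 CPM in WT 1, 2 and 3. The knockout mean was 45.8% of the WT mean, and knockout 1 was the closest of its group to WT. On the log2 scale the difference was -1.12 ± 0.309 (SE, 95% interval -1.86 to -0.39, adjusted p = 0.0859). In the Y-count libraries it was -1.48 ± 0.251 (adjusted p = 0.0102), and in the Xist-count pair the log2 ratio was -0.62. The adjusted p ran from 0.0079 to 0.274 over the alternatives.

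Wnt9b, the other Wnt gene of the central vein in this set, was close to the limit of precision, with 30 to 58 counts per library. Its levels were 0.515, 0.99 and 0.849 CPM in the knockout mice, against 0.729, 0.984 and 1.24 CPM in the WT mice. The groups overlapped, and the lowest library of each group was replicate 1. Its log2 fold change of -0.33 ± 0.373 (SE) had a 95% interval from -1.21 to 0.56 (adjusted p = 0.606). It was -0.10 without knockout 1, -0.13 without WT 3, -0.53 without knockout 2 and -0.51 without WT 1.

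Rspo3 encodes the R-spondin made around the central vein. It was at 4.37, 3.37 and 4.25 CPM in the knockout mice, against 7.24, 5.42 and 4.77 CPM in the WT mice. The 3 knockout libraries lay under the 3 WT libraries, but the highest knockout library and the lowest WT library were close. The log2 fold change was -0.54 ± 0.220 (SE, adjusted p = 0.178), with -0.43 ± 0.201 in the Y-count libraries (adjusted p = 0.157) and -0.73 in the Xist-count pair. Without WT 1 the value was -0.35. An antisense gene, Gm48159, overlaps 404 bases of its exons.

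Endothelial marker genes had lower levels alongside these signals. Over 19 markers of liver endothelium the summed level was 322, 253 and 197 CPM in the knockout mice, against 522, 387 and 388 CPM in the WT mice, so the knockout mean was 59.6% of the WT mean. All 19 had a lower fitted level (7129 of the 14539 genes tested did), and the median was -0.75 on the log2 scale. Of the 19, 0 passed the threshold (3.37% of all genes tested did), 15 were lower at an unadjusted p under 0.05 (11.7% of all genes), and 15 fell in the Y-count libraries (16.1%). Markers of stellate cells and fibroblasts had a median close to this, at -0.64, with all 12 lower in fitted level. The closest to the threshold were Tek, an angiopoietin receptor, Fcgr2b, an Fc receptor of sinusoidal endothelium, and Dnase1l3, a secreted nuclease, at log2 fold changes of -0.86, -0.79 and -0.89 (adjusted p = 0.0541, 0.0565 and 0.0566). In a bulk sample, fewer cells of a type and less RNA per cell cannot be told apart, and the part of the endothelial markers in the values of the signals was not tested.

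Set against the summed endothelial markers, all 3 signals overlapped between the groups. Wnt2 amounted to 0.56%, 0.363% and 0.559% of that sum in knockout and 0.529%, 0.778% and 0.667% in WT. Rspo3 amounted to 1.36%, 1.33% and 2.15% in knockout and 1.39%, 1.40% and 1.23% in WT. Wnt9b was at 0.16% to 0.43% in knockout and 0.14% to 0.32% in WT. Among 7 genes marking central vein endothelium, 0 passed the threshold and all 7 had a lower fitted level (7129 of 14539 genes tested did), with a median of -0.45. Of the 7, 3 fell in the Y-count libraries (16.1% of all genes tested did). Of these Cdh13, an adhesion protein, was at 0.612 to 1.94 CPM in the knockout mice, against 2.33 to 2.99 CPM in the WT mice (log2 fold change -1.33 ± 0.467, adjusted p = 0.138), and it fell in the Y-count libraries (-2.002 ± 0.28, adjusted p = 0.00578) and without knockout 1 (-2.05, adjusted p = 0.00438). Kit and Lhx6 overlapped between the groups over all 6 libraries, and Lhx6 fell in the Y-count libraries (-1.61 ± 0.287, adjusted p = 0.0117).

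**Figure D2:**
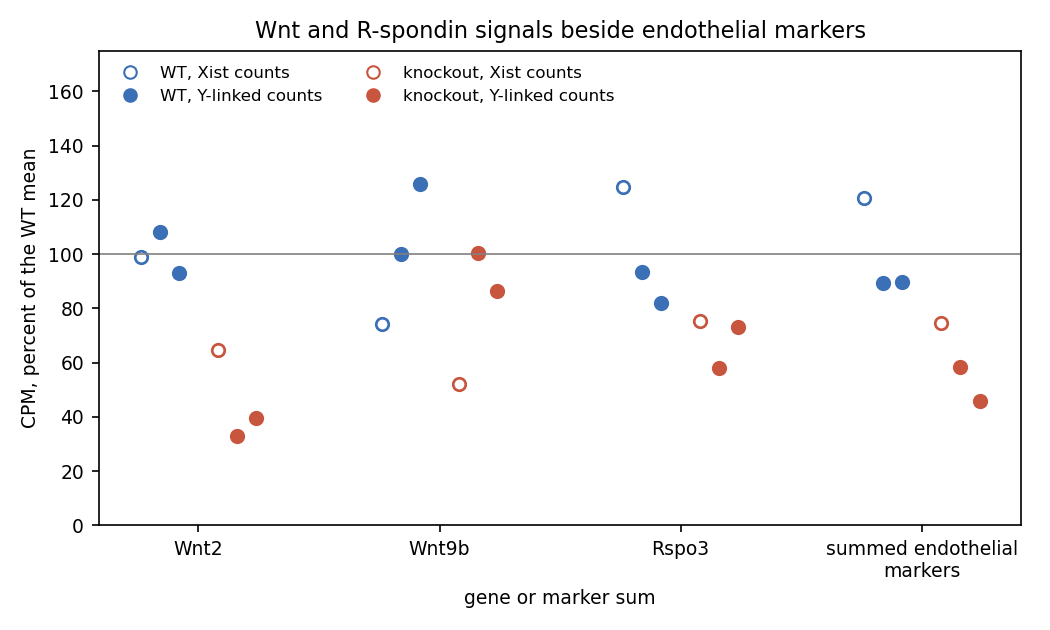
Wnt2, Wnt9b, Rspo3 and the summed CPM of 19 endothelial markers in each library, each as a percentage of its own WT mean, with WT in blue, knockout in red and open circles for the libraries with Xist counts. The endothelial sum averaged 59.6% of the WT mean in knockout, beside 45.8% for Wnt2, 68.8% for Rspo3 and 79.7% for Wnt9b.

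Axin2 encodes a scaffold of the destruction complex and is the most widely used readout of Wnt signalling, since beta-catenin induces it in most tissues. Its levels were 6.14, 6.86 and 6.28 CPM in the knockout mice, against 8.42, 10.1 and 11.8 CPM in the WT mice. The knockout libraries were close together and all lay under the WT libraries, among which WT 1 was lowest. The fitted log2 fold change was -0.65 ± 0.167 (SE, 95% interval -1.05 to -0.26, adjusted p = 0.0754). It was -0.74 ± 0.145 in the Y-count libraries (adjusted p = 0.0152) and -0.45 in the Xist-count pair. An antisense gene, Gm11670, overlaps 209 bases of its exons, and the use of strand in counting is not given in the sources used here.

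Tbx3, a T-box transcription factor and pericentral target, had the largest difference between the 2 library states among the 10 genes. Knockout 1 had 19.6 CPM and WT 1 had 21.5 CPM, a log2 ratio of -0.13. In the Y-count libraries the knockout levels were 8.23 and 10.6 CPM and the WT levels 29.1 and 31.1 CPM. The groups were far apart there and close in the Xist-count pair. Tbx3 fell by 1.69 ± 0.151 (SE) on the log2 scale in the Y-count libraries (adjusted p = 0.0017). Over all 6 libraries the value was -1.09 ± 0.331 (adjusted p = 0.105). The difference between the Xist-count pair and the Y-count libraries, fitted as an interaction, was 1.55 on the log2 scale and passed the threshold in edgeR (adjusted p = 0.0438), as it did for 2.90% of all genes tested. The interaction rests on 1 knockout and 1 WT library with Xist counts, so its spread comes from the Y-count libraries alone, the lone libraries are assumed to vary like them, and the p-value compares these libraries and not the states. The antisense gene Tbx3os1 overlaps 115 bases of Tbx3 exons.

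Rnf43 and Znrf3 encode the paired ubiquitin ligases that clear Frizzled receptors and that R-spondins switch off, and both are described as Wnt-induced brakes on the pathway. Rnf43 was at 14.9, 8.61 and 12.3 CPM in the knockout mice, against 25.1, 19.9 and 19.4 CPM in the WT mice. All knockout libraries lay under all WT libraries, and within each group replicate 1 was the highest. On the log2 scale the difference was -0.84 ± 0.222 (SE, adjusted p = 0.0785), with -0.92 ± 0.187 in the Y-count libraries (adjusted p = 0.0174) and -0.75 in the Xist-count pair.

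Znrf3 was at 10.8, 10.6 and 11.99 CPM in the knockout mice, against 11.5, 11.01 and 10.4 CPM in the WT mice. The groups overlapped, and Znrf3 was the only one of the 10 genes with a positive fitted value. The log2 fold change was 0.02 ± 0.125 (SE, adjusted p = 0.917), with a 95% interval from -0.27 to 0.32 that lies above the fitted value of Rnf43. The difference between the 2 ligases was not itself tested. The sign of the Znrf3 value turned without knockout 3 (-0.03) and without WT 3 (-0.02).

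Lgr5 encodes an R-spondin receptor and is itself induced by Wnt. It was at 6.35, 2.11 and 4.71 CPM in the knockout mice, against 8.20, 5.63 and 5.20 CPM in the WT mice. Knockout 1 lay above WT 2 and WT 3, while knockout 2 was the lowest library. The difference on the log2 scale of -0.53 ± 0.402 (SE, 95% interval -1.48 to 0.42) did not pass the threshold (adjusted p = 0.433). Without knockout 2 the value moved to -0.19, without WT 1 to -0.31, and without knockout 1 to -0.91, none past the threshold.

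Nkd1 encodes an inhibitor that binds Dishevelled, the protein that relays the signal from Frizzled. It was at 3.67, 2.65 and 1.95 CPM in the knockout mice, against 6.53, 3.63 and 3.72 CPM in the WT mice. Knockout 1 lay just above WT 2 and just below WT 3, so the groups overlapped by a narrow margin, and WT 1 stood well above the other WT libraries. The fitted log2 fold change was -0.74 ± 0.337 (SE, adjusted p = 0.216), with -0.68 ± 0.233 in the Y-count libraries (adjusted p = 0.0742) and -0.83 in the Xist-count pair. Without WT 1 the value was -0.42.

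Lect2, a protein that hepatocytes secrete into blood and a known beta-catenin target in the liver, had the widest spread of the 10 genes. It was at 72.1, 14.6 and 26.9 CPM in the knockout mice, against 109, 60.4 and 55.5 CPM in the WT mice. Replicate 1 was the highest library in each group, and knockout 1 lay above WT 2 and WT 3. The log2 fold change over all 6 libraries was -0.99 ± 0.578 (SE, adjusted p = 0.32). In the Y-count libraries it fell by 1.49 ± 0.283 on the log2 scale (adjusted p = 0.014), and the log2 ratio in the Xist-count pair was -0.60. Without knockout 1 the value was -1.86 (adjusted p = 0.0196), without knockout 2 it was -0.59, and without WT 1 it was -0.62.

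**Figure D3:**
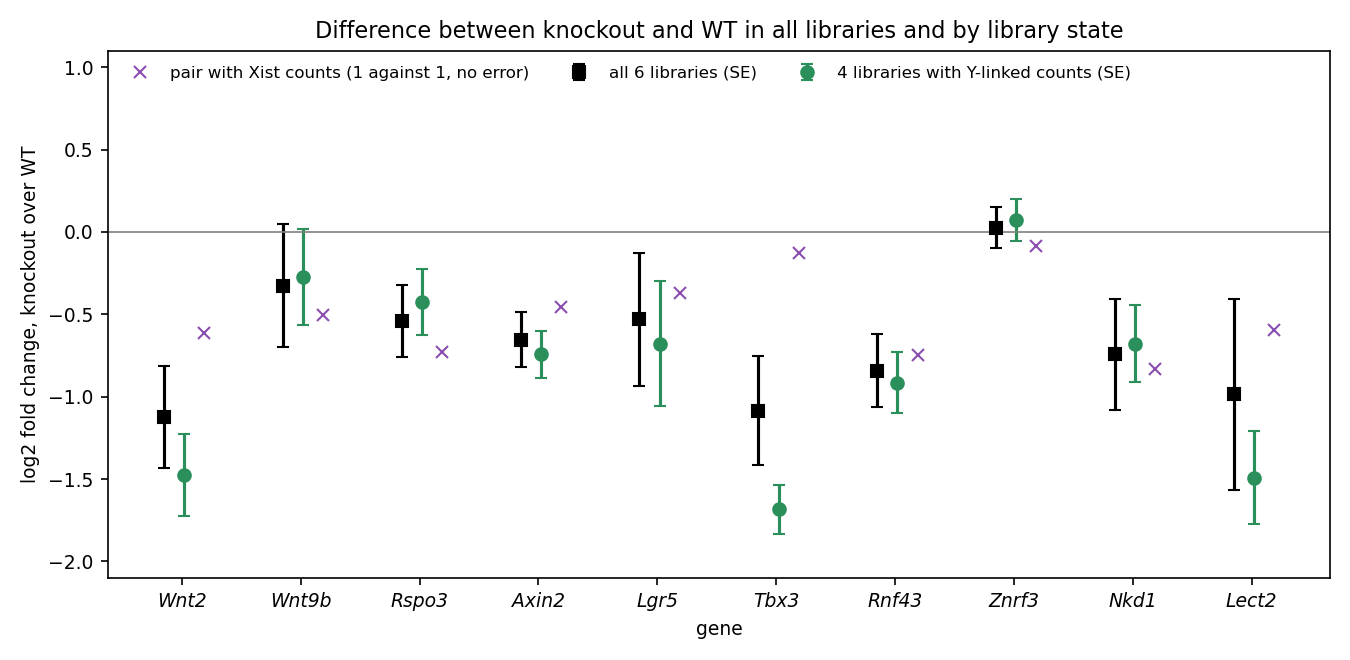
Log2 fold change of knockout over WT for each of the 10 genes, from all 6 libraries (black squares, bars of 1 SE), from the 4 libraries with Y-linked counts (green circles, bars of 1 SE) and from the Xist-count pair (purple crosses, 1 against 1, no error). For Tbx3 the values by state are -1.69 and -0.13, while those of Rnf43 are -0.92 and -0.75.

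Promoters of the signals and of the targets were searched for the letters CTTTGA and CTTTGAT, forms of the sequence that TCF/LEF factors bind, on both strands. RefSeq windows of GRCm38.p6 that run from 250 bases before to 50 bases after the start were matched for 6 of the 10 genes (Wnt2, Wnt9b, Axin2, Rnf43, Nkd1 and Lect2). Lect2 alone among the 6, of which Wnt2 and Wnt9b are signals, held a match. The window of Glul, the glutamine synthetase gene, held none. The Lect2 window, at chr13:56548489-56548788 on the minus strand, has CTTTGAT on the opposite strand, beginning 32 bases before the RefSeq start. The shorter form lies within the longer one. RefSeq starts can differ from the GENCODE gene limits given below, as for Lect2. The Nkd1 window (88527383 to 88527682) lies inside its GENCODE gene, which begins at 88521354. Of 32851 windows of this length, 16% held CTTTGA and 3.73% held CTTTGAT. The window of Axin2, at chr11:108920099-108920398 on the plus strand, had neither. A match is a description of letters, and a window without one says only that they are not in it. Both windows are shown 5′ to 3′ on the gene's strand, because these are the classical Wnt readout and the one gene with a match, and capitals mark the match.
Lect2: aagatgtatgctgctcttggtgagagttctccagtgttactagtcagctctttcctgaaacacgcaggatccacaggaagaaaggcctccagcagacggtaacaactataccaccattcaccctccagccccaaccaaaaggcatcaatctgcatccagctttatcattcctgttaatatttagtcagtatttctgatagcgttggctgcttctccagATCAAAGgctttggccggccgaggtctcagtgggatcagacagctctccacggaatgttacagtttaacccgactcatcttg
Axin2: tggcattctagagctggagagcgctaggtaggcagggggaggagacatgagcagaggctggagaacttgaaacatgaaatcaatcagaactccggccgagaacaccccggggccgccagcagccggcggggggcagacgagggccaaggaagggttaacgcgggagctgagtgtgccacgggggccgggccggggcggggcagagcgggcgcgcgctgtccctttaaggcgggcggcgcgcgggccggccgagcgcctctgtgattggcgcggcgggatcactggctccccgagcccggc

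Levels can be compared between genes per length. In TPM (abundance per length, from the deposited counts and the merged exon length of each gene), the WT order was Lect2 at 183 ± 85.1 (SD, n = 3), Tbx3 at 9.01 ± 1.21, Rnf43 at 7.28 ± 1.56, Rspo3 at 4.19 ± 1.20 and Axin2 at 4.04 ± 0.508. Then followed Znrf3 at 3.07 ± 0.339, Wnt2 at 2.73 ± 0.235, Nkd1 at 2.28 ± 0.971, Lgr5 at 1.38 ± 0.448 and Wnt9b at 0.477 ± 0.104. Neighbours in this order were separate in all 3 WT libraries for Lect2 and Tbx3, Rnf43 and Rspo3, Axin2 and Znrf3, and Lgr5 and Wnt9b, and the other neighbours overlapped. By its knockout mean Znrf3, at 3.16 ± 0.110 TPM, came before Rspo3 at 2.90 ± 0.4004 and Axin2 at 2.63 ± 0.342. The knockout ranges of Znrf3 (3.04 to 3.25 TPM) and Rspo3 (2.59 to 3.35 TPM) overlapped, and that of Axin2 (2.28 to 2.97 TPM) lay under Znrf3. Of the 2 Wnt genes, Wnt2 had a higher TPM than Wnt9b in every library of both groups. Without the length, in CPM, knockout 2 had less Wnt2 (0.918) than Wnt9b (0.99).

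All 10 genes are protein-coding on GRCm38 (GENCODE M21). Wnt9b (103727364 to 103749821), Axin2 (108920349 to 108950783), Rnf43 (87662722 to 87735539) and Znrf3 (5276324 to 5444847) are on chromosome 11. Rspo3 (29452416 to 29535867) and Lgr5 (115450311 to 115587780) are on chromosome 10, the chromosome of Stk11 (80115803 to 80130682). Wnt2 is on chromosome 6 (17988940 to 18030585), Tbx3 on chromosome 5 (119670669 to 119684724), Nkd1 on chromosome 8 (88521354 to 88594884) and Lect2 on chromosome 13 (56542464 to 56548502).

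The rest of the pathway was read from lists of genes by role. Among 17 other Wnt genes, 6 had no count in any library and 4 were tested, of which 0 passed the threshold. Wnt9a, also described in liver endothelium, was at 0.326, 0.054 and 0.106 CPM in the knockout mice, against 0.749, 0.444 and 0.684 CPM in the WT mice (log2 fold change -1.91 ± 0.641, adjusted p = 0.125). Wnt5a, a Wnt of the non-canonical branch, had a value of -1.53 ± 0.618 (adjusted p = 0.176) and Wnt4 one of -0.58 ± 0.279 (adjusted p = 0.239). Both Wnt9a and Wnt5a fell in the Y-count libraries, with log2 fold changes of -2.81 and -1.73. Without knockout 1 both passed, at -2.96 and -2.29 (adjusted p = 0.0107 and 0.03). Without WT 1 the values of Wnt5a and Wnt4 were -0.97 and -0.37. The Wnt9a level of 0.054 CPM in knockout 2 corresponds to 3 counts, so its fold changes in these fits have little precision. Wls, which carries Wnt proteins to the cell surface, overlapped between the groups, at 2.27 to 4.65 CPM in the knockout mice, against 4.30 to 6.19 CPM in the WT mice.

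Among 12 tested Frizzled receptors and coreceptors, 0 passed the threshold and the median log2 fold change was -0.25. Fzd8 had the largest difference, at 6.64, 2.88 and 3.35 CPM in the knockout mice, against 18.6, 9.43 and 7.63 CPM in the WT mice (-1.47 ± 0.444, adjusted p = 0.103). Fzd8 passed as lower in the Y-count libraries, with DESeq2, with the state term and without knockout 1 (adjusted p = 0.00481, 0.0085, 0.0119 and 0.0196). Fzd7 and Ror1, a receptor for non-canonical Wnts, were lower in every knockout library (-0.35 and -0.80, adjusted p = 0.123 and 0.171), and Ror1 fell in the Y-count libraries (-1.16, adjusted p = 0.0264). Lgr4, the R-spondin receptor of most hepatocytes, had a positive value, at 65.2, 109 and 109 CPM in the knockout mice, against 56.4, 69.9 and 66.6 CPM in the WT mice. Knockout 1 lay below WT 2 and WT 3, so the groups overlapped. The fitted value was 0.56 ± 0.223 (adjusted p = 0.173), and Lgr4 rose in the Y-count libraries (0.67 ± 0.106, adjusted p = 0.00818). Lrp6, the Wnt coreceptor, overlapped between groups (-0.13 ± 0.230, adjusted p = 0.742).

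The 19 genes of Dishevelled and the destruction complex had a median of 0.06 and the 13 tested genes of beta-catenin and its partners one of 0.02, with 0 of either list past the threshold over all 6 libraries. When the Y-count libraries were tested, 1 of the 19 rose and 1 fell, and 2 of the 13 rose and 1 fell. Of all genes tested, 17.2% rose and 16.1% fell there. Ctnnb1, which encodes beta-catenin, was at 227, 227 and 235 CPM in the knockout mice, against 239, 228 and 222 CPM in the WT mice, and the 95% interval of its log2 fold change ran from -0.31 to 0.32. Tcf7l2, a main TCF factor of hepatocytes, had an interval from -0.30 to 0.33. Gsk3b, a kinase of the destruction complex, was higher in every knockout library (0.57 ± 0.188, adjusted p = 0.119), and Btrc, which targets beta-catenin for degradation, was lower in every one (-0.32 ± 0.123, adjusted p = 0.16). Gsk3b rose in the Y-count libraries (0.70, adjusted p = 0.00605) and without knockout 1 (0.75, adjusted p = 0.00464), and Btrc fell in the Y-count libraries (-0.41, adjusted p = 0.0457).

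The Groucho corepressors, which bind TCF factors when beta-catenin is absent, had values in both directions. Tle1 was at 50.7, 52.7 and 60.9 CPM in the knockout mice, against 38.2 to 38.7 CPM in the WT mice (0.51 ± 0.117, adjusted p = 0.0636), and Tle4 was also higher in every knockout library (0.57 ± 0.207, adjusted p = 0.145). Both rose in the Y-count libraries (0.56 and 0.74, adjusted p = 0.0173 and 0.0114), and Tle1 also with DESeq2 (0.00937), the state term (0.0421), library size alone (0.0465) and without knockout 1 (0.0112). Tle3 was at 7.43, 3.24 and 2.504 CPM in the knockout mice, against 9.46, 16.4 and 19.99 CPM in the WT mice. Its value over all 6 libraries was -1.80 ± 0.464 (adjusted p = 0.0765), and it fell by 2.66 ± 0.188 on the log2 scale in the Y-count libraries (adjusted p = 0.000883).

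All 5 tested secreted Wnt antagonists of 15 had lower fitted levels (7129 of 14539 genes tested did), 0 of them past the threshold, with a median of -0.53. Notum, a Wnt-inactivating enzyme that is itself a Wnt target, was at 20.5, 10.6 and 17.7 CPM in the knockout mice, against 41.2, 27.0 and 26.8 CPM in the WT mice (-0.96 ± 0.285, adjusted p = 0.0977), with similar values by state, -0.94 and -1.01. It passed as lower in the Y-count libraries, with DESeq2, with the state term and without knockout 1 (adjusted p = 0.0343, 0.0162, 0.0407 and 0.0304). Genes on the other strand overlap 918 bases of Notum exons. Sfrp1 and Kremen1 were also lower in every knockout library (-1.12 and -0.37, adjusted p = 0.13 and 0.158), and both fell in the Y-count libraries (adjusted p = 0.0488 and 0.0345). Among 7 tested general targets 1 rose and 0 fell. This was Myc, a growth-control transcription factor with many inputs beside Wnt, at 11.6, 41.8 and 19.9 CPM in the knockout mice, against 3.02, 2.04 and 2.14 CPM in the WT mice (3.35 ± 0.489, adjusted p = 0.0257), a call lost in limma voom (adjusted p = 0.0532) and without knockout 3, WT 1, WT 2 or WT 3 (0.055 to 0.153). Tnfrsf19 and Bambi, 2 further targets, had values of -1.08 ± 0.403 and -0.87 ± 0.429 (adjusted p = 0.154 and 0.245). Without WT 1 they were at -0.46 and -0.53. Bambi fell in the Y-count libraries (-1.02, adjusted p = 0.0263) and without knockout 1 (-1.38, adjusted p = 0.035).

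**Figure D4:**
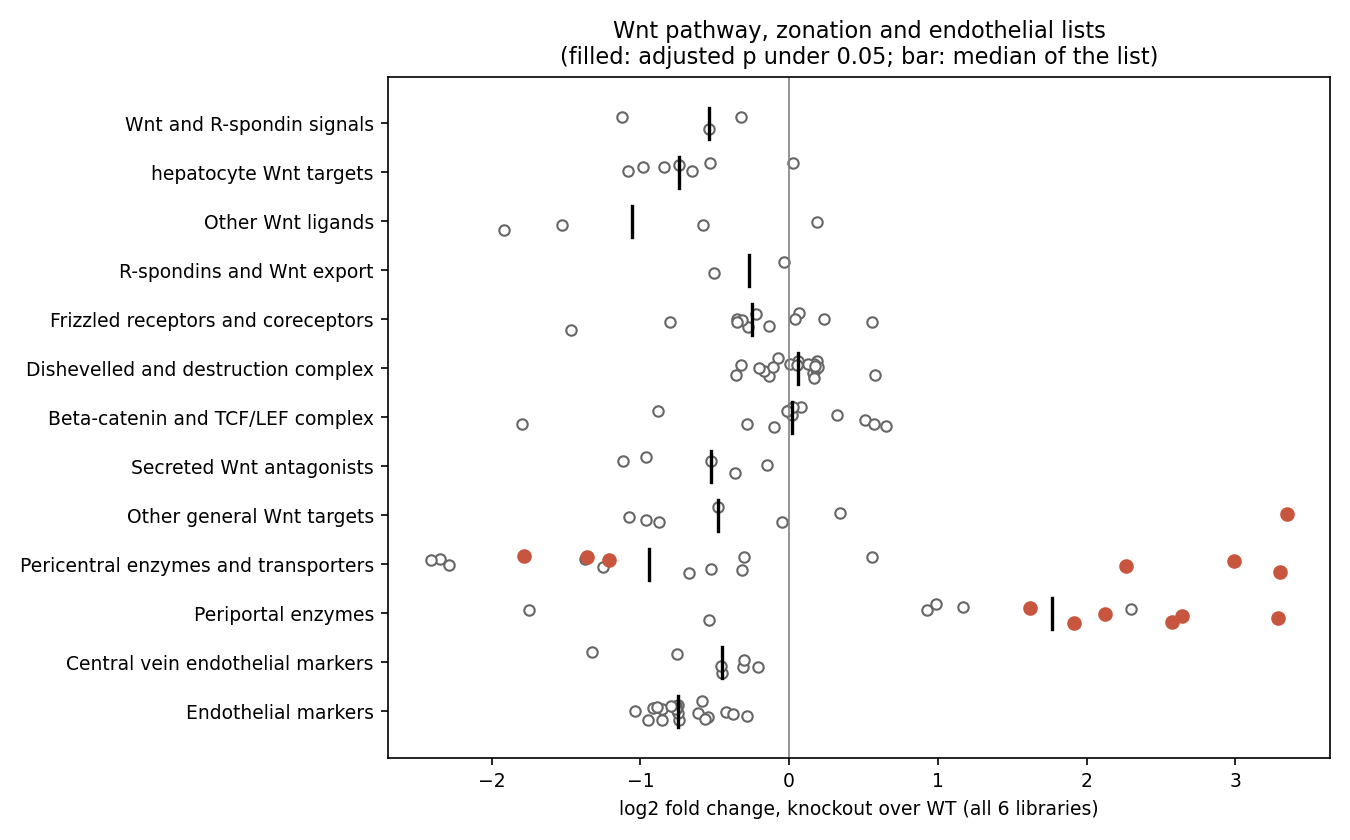
Log2 fold change of knockout over WT for each tested gene of the Wnt pathway, zonation and endothelial lists, with filled red points for an adjusted p under 0.05 in edgeR and a bar at each median. The bars lie at -0.54 for the signals, -0.74 for the hepatocyte targets, 0.06 for the destruction complex and 1.77 for the periportal list.

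A list of 16 pericentral genes, mainly enzymes and transporters, covered the metabolic side of the same zone. Of these 16, 3 rose and 3 fell over all 6 libraries, against 2.15% and 1.22% of all genes tested. The median log2 fold change of the list was -0.94. Of the same 16, 3 rose and 10 fell in the Y-count libraries, against 17.2% and 16.1% of all genes tested. Cyp1a2, Cyp27a1 and Slc13a3 fell, with log2 fold changes of -1.36, -1.21 and -1.79 (adjusted p = 0.0259, 0.0226 and 0.0482). Oat, Lhpp and Slc22a3 rose, by 2.99, 2.26 and 3.30 (adjusted p = 0.0047, 0.00863 and 0.0109). Each of these 6 calls was lost without WT 2 or without WT 3, those of Slc22a3, Cyp1a2, Cyp27a1 and Slc13a3 also without knockout 3, and those of the last 3 without knockout 2 (adjusted p = 0.0526 to 0.19 over these fits). Slc13a3 was also not called when scaled by library size alone (0.0605) or in limma voom (0.0649). Glul, the glutamine synthetase gene and the classical pericentral target, was at 476, 30.3 and 76.6 CPM in the knockout mice, against 926 to 1090 CPM in the WT mice, with a value of -2.35 ± 0.931 (adjusted p = 0.17) that did not pass. It fell in the Y-count libraries (-4.14 ± 0.477, adjusted p = 0.00341) and without knockout 1 (-4.22, adjusted p = 0.0028). Cyp2e1, Avpr1a and Nr1i3 were lower in every knockout library (-2.41, -1.38 and -1.25, adjusted p = 0.064, 0.0654 and 0.0919). All 3 fell in the Y-count libraries (adjusted p = 0.00474, 0.00262 and 0.0179), and they also passed with DESeq2, with the state term and without knockout 1 (adjusted p = 1.34e-05 to 0.0318). In Nr1i3, 3304 bases of exons overlap Tomm40l on the other strand.

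Glul and Tbx3 both stood nearest to WT in knockout 1, while Axin2 did not, with 6.14 CPM there beside 6.28 and 6.86 CPM in knockout 3 and 2. Of 12 periportal genes, mainly enzymes, 6 rose and 0 fell over all 6 libraries, against 2.15% and 1.22% of all genes tested. Their median was 1.77. Of the same 12, 9 rose and 2 fell in the Y-count libraries, against 17.2% and 16.1% of all genes tested. Gls2, the liver glutaminase, and Etnppl, a phospholyase, rose by 2.12 and 3.29 (adjusted p = 0.0132 and 0.0261), calls that were lost without WT 2 or without WT 3, that of Etnppl also without any 1 of knockout 2, knockout 3 and WT 1 (adjusted p = 0.0602 to 0.14).

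Other cell types were read from marker lists, in which no marker was at 0 in all libraries. The summed level of 12 stellate and fibroblast markers was 197 to 423 CPM in the knockout mice, against 316 to 688 CPM in the WT mice, and that of 10 macrophage markers was 138 to 307 CPM and 199 to 276 CPM. Bile duct markers (7 genes) summed to 25.6 to 76.4 CPM in the knockout mice, against 40.5 to 74.6 CPM in the WT mice, and lymphocyte markers (7 genes) to 4.44 to 10.2 CPM and 7.12 to 10.3 CPM. In each of these lists 0 genes passed the threshold over all 6 libraries. The medians on the log2 scale were -0.64 for stellate, -0.39 for macrophage, 0.04 for bile duct and -1.04 for lymphocyte markers, and -1.08 for the 7 hepatocyte markers, of which 0 passed. In the Y-count libraries 5 of 12 stellate, 5 of 10 macrophage, 1 of 7 bile duct, 3 of 7 lymphocyte and 5 of 7 hepatocyte markers fell. There 1 macrophage marker rose, and of all genes tested 16.1% fell and 17.2% rose. The part of these shifts in the values of the Wnt genes was not tested.

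The genes most like Axin2 across the 6 libraries, by Pearson's r of log2 CPM among 11964 other genes with a mean of at least 1 CPM, were Atxn3, Agap1, Slc25a37, Cdc37l1 and Trim39, each with an r of 0.99. Of these Slc25a37 fell, by 1.02 on the log2 scale (adjusted p = 0.0301), a call lost without knockout 2, knockout 3, WT 2 or WT 3 (adjusted p = 0.0718 to 0.16). The genes most like Rspo3 were Gm11837, Ehbp1, Nrn1, Tstd1 and Cxxc5, with r from 0.98 to 1.00. With 6 libraries, 2.85% of the candidates had an r over 0.9 with Axin2 and 1.81% with Rspo3, so these names describe the libraries only.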

How the data were processed

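The authors deposited 1 table of expected counts (RSEM's estimated reads per gene) for 6 libraries, 1 per mouse; 0 columns were left without a sample. Per the submitters' processing notes, bcl2fastq 2.17, cutadapt 1.18, STAR 2.7.0f and RSEM 1.3.1 were used and the build was mm9. All 55450 versioned identifiers are in GENCODE M21 (GRCm38), from which positions were taken. Groups and replicate numbers came from the titles. Use of strand is not given in the sources used here.

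Expected counts were rounded, filtered with filterByExpr, scaled by TMM and compared with edgeR 4.0.16 (glmQLFit, glmQLFTest, group only; R 4.3.3), with Benjamini-Hochberg adjustment over 14539 genes and a threshold of 0.05. The SE is the log2 fold change divided by the root of F. Alternatives used limma 3.58.1, DESeq2 1.42.0, other scalings, filters and subsets, and the scripts were tested on simulated data. Log2 CPM used a prior count of 2. The 10 genes, the lists and the rule for naming genes (those past the threshold and the smallest p-values of each list, with a fixed set) were chosen with earlier results of these data known.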

Additional observations from a re-analysis of the deposited data

Results flagged for a closer look

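For 2 of the genes named here the log2 difference of knockout from WT was not the same in the Y-count libraries and in the Xist-count pair, by an edgeR interaction term adjusted over all genes tested (2.90% of which passed). Tbx3 had an interaction of 1.55 on the log2 scale (adjusted p = 0.0438), from -1.69 in the Y-count libraries to -0.13 in the Xist-count pair. Tle3 had one of 2.31 (adjusted p = 0.0269), from -2.66 to -0.35. The Xist-count pair is 1 library against 1, and its state cannot be told apart from replicate number 1. Knockout 1 also had the highest Stk11 level of the knockout libraries, at 22.2 CPM. The spread in the interaction comes from the Y-count libraries alone, and over all genes tested knockout 1 was closer to WT 1 (r = 0.968) than to knockout 2 and 3 (0.943 and 0.959). WT 1 correlated at 0.967 and 0.964 with WT 2 and 3, which were at 0.992 with each other. Tbx3 and Tle3 were lowest among the WT libraries in WT 1, at 21.5 and 9.46 CPM.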

How the results depend on the processing

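The count of genes called over the whole table, 490 in edgeR with all 6 libraries, was 771 with no low-count filter, 2290 with DESeq2, 105 with the replicate block, 4847 in the Y-count libraries and 1504 with a term for library state. Leaving out 1 library gave 6 to 4473 calls, with 6 without WT 2 and 4473 without knockout 1. Of the 10 Wnt genes, 0 were called with all 6 libraries, 4 with DESeq2, 5 in the Y-count libraries, 3 with the term for state, and 0 to 5 when 1 library was left out, the 5 without knockout 1. Their median log2 fold change of -0.70 ran from -0.96 (without knockout 1) to -0.56 when 1 library was left out and from -0.76 to -0.65 under the other alternatives. With the replicate block 0 of the 10 were called (smallest adjusted p = 0.084). Among the other named genes, the block made calls of Fzd8 and Avpr1a (adjusted p = 0.0457 and 0.0317) and lost those of Cyp1a2, Cyp27a1, Slc13a3, Gls2, Myc and Slc25a37 (adjusted p = 0.0539 to 0.0818). Same-numbered knockout and WT libraries are different mice, and the main fit does not pair them. Their deviations from the group means correlated at 0.18, 0.04 and 0.07, and those of differently numbered libraries at -0.17 to 0.20. With 3 libraries per group, and replicate 1 sharing its state, these values cannot exclude structure shared by number. Direction turned for 4 genes with values near 0. Leaving out 1 library gave -0.0309 (without knockout 3) to 0.0663 (without knockout 2) for Znrf3, where WT 3 also turned it, -0.0233 (without WT 3) to 0.0274 (without WT 1) for Ctnnb1, -0.037 (without knockout 1) to 0.0962 (without knockout 2) for Tcf7l2 and -0.309 (without knockout 1) to 0.0788 (without knockout 2) for Lrp6. Ctnnb1 was also at -0.0102 with RLE size factors, -0.00884 with no filter, -0.0186 with a stricter filter (at least 1 CPM in at least 3 libraries) and -0.0102 with DESeq2. Tcf7l2 was also at -0.00272 with the stricter filter and -0.0137 in the Y-count libraries. The causes were not tested. Wnt9b was not tested under the stricter filter, and its 30 to 58 counts per library limit its precision.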
